A study of Mus musculus with 2 samples.

Results

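The very wide DNase I hypersensitive sites (DHS) of mouse splenic B cells are described here. They were chosen by width alone, as the DHS on chromosomes 1 to 19 whose end minus start was at least 3000 bp, and there were 552 of them among 46610 DHS on these chromosomes and 47542 in the whole list. The cells were B cells from the spleen of C57/Bl6 animals 8 weeks old, of genotype Trp53+/+ and mock treatment, so that they had not been irradiated. They were enriched with beads against B220, a surface marker of B cells, and the methods of the study add that dying cells were removed on a Ficoll gradient before the nuclei were digested with DNase I. The series holds 1 DNaseI library, with 1 peak list, and 1 input library of the same cell type, genotype and treatment, whose data were not analysed here. How many animals went into a library is not given. With 1 library there are no replicates, no p-value is given, and each interval is a 95% interval that covers counting error only, while neighbouring DHS are not independent of each other.

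DNase I cuts DNA that is free of tightly packed nucleosomes, and most hypersensitive sites are short stretches at promoters and enhancers, where bound transcription factors displace a few nucleosomes. A wide site spans many nucleosome lengths. Long open stretches are known from clusters of enhancers near genes of cell identity and from genes that are rapidly transcribed after a stimulus. In B cells the identity genes include Pax5 and Ebf1, which code for transcription factors that set up and keep the lineage, and the stimulus-responsive genes include the Fos, Jun and Egr families and Zfp36, the product of which speeds the decay of AU-rich mRNAs.

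Very wide DHS made up 1.18% of the DHS on these chromosomes (Wilson interval 1.09 to 1.29) and held 4.82% of the bases in DHS, 2.09 Mb. Their width ran from 3000 to 7995 bp with a median of 3488 bp and quartiles at 3196 and 4112 bp, against a median of 754 bp in the 46058 narrower DHS. Between 3000 and 3500 bp there were 281, and 51 reached 5000 bp. The threshold fell in a continuous range of widths, with 139 DHS up to 200 bp above it and 173 up to 200 bp below it. Just inside were DHS of 3000 bp at Cnn3, 3001 bp at Cpsf3 and 3002 bp at Cd52, with scores of 370.64, 183.3 and 67.15. Just outside were DHS of 2999 bp at Kcnk13 and 2996 bp at Camk1d, with scores of 96.83 and 156.06.

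The list gives each DHS a score from the peak caller, whose scale is not stated. Very wide DHS scored from 19.2 to 590 with a median of 150, against 32.2 in narrower DHS, and 336 of them (60.9%) lay in the highest score decile, in which they were 7.21% of the DHS. Only 15 were in decile 6 or lower. Since wide DHS had high scores, each share or mean was set beside that of narrower DHS of the same score deciles, weighted by the number of very wide DHS in each decile. Within deciles the scores were still unequal, with means of 173 for very wide and 151 for narrower DHS.

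**Figure D1:**
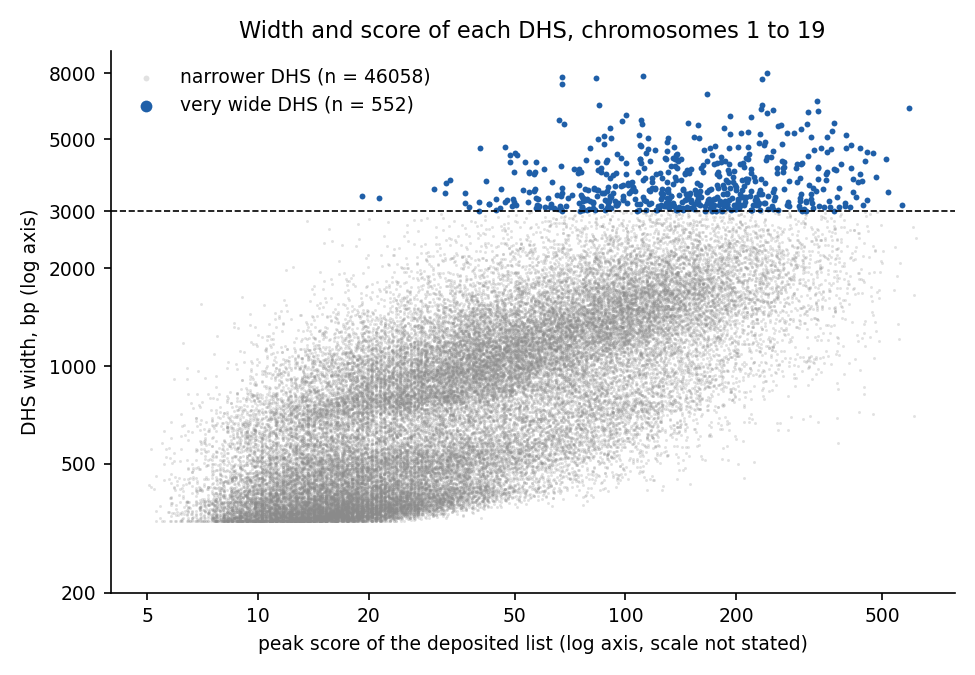
Score (x axis, log scale) and width in bp (y axis, log scale) of each DHS on chromosomes 1 to 19, with the 552 very wide DHS in blue above the dashed line at 3000 bp and narrower DHS in grey. Very wide DHS lie mostly at scores above 50, up to 590, and no gap in width separates them from the narrower ones.

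The sequences of 6 very wide DHS are printed here because they stand for the kinds of site described below. The first 4 are the 250 bases upstream of a protein-coding transcription start site (TSS), and only stretches inside the DHS and free of annotated exons were taken, which passed over some wider DHS, among them those at Isl2 and Sfi1. Under this limit they come from the widest DHS with a CpG-rich promoter (Tnrc18, 7732 bp), the widest with only CpG-poor promoters (Pax5, 6909 bp), the widest but Pax5 of the B cell transcription factors (Bcl6, 5912 bp), and the widest of the immediate early genes (Zfp36, 7653 bp). The last 2 are the central 250 bases of the widest DHS outside any promoter window, both in introns, of Pax5 (6076 bp) and of Hvcn1 (5920 bp), a proton channel of B cells. Positions are on mm9, and capitals mark CpG dinucleotides.
Tnrc18, chr5:143579342-143579591, minus strand: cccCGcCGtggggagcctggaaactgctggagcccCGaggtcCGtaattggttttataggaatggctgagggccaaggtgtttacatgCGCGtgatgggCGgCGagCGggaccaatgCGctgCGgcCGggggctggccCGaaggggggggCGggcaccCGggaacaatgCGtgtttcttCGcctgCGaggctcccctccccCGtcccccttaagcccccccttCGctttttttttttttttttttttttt
Pax5, chr4:44724319-44724568, minus strand: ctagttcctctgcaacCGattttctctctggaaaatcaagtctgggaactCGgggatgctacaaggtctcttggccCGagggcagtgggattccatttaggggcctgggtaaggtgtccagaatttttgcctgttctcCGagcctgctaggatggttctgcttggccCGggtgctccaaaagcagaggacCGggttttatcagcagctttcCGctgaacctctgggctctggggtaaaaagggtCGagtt
Bcl6, chr16:23988939-23989188, minus strand: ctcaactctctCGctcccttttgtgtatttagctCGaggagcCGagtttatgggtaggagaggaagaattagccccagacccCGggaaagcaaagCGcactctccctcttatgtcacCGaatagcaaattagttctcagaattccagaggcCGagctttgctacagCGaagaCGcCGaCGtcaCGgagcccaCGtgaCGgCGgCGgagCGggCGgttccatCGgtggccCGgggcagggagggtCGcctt
Zfp36, chr7:29164275-29164524, minus strand: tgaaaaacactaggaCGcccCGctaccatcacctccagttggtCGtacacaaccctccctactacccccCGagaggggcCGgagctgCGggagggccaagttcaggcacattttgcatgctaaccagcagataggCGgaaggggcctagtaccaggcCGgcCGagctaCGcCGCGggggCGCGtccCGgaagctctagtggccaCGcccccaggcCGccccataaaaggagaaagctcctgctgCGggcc
Pax5 intron, chr4:44684798-44685047, plus strand: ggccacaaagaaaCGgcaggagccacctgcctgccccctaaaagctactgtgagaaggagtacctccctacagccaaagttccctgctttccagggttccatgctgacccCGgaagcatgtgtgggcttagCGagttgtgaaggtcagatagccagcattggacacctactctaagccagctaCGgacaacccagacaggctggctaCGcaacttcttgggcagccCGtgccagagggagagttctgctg
Hvcn1 intron, chr5:122682840-122683089, plus strand: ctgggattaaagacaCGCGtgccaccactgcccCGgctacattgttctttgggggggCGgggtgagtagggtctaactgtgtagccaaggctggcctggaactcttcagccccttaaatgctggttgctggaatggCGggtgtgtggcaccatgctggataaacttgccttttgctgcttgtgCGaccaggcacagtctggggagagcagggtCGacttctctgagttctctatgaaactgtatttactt
The upstream sequences of Tnrc18, Bcl6 and Zfp36 held 20, 21 and 18 CpG, although the DHS at Bcl6 held no TSS that was CpG-rich over the 1000 bp around it. That of Pax5 held 8, close to the 6 and 7 of both intron sequences, which lie outside any promoter window.

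The widest sites lay at genes of B cell function as well as at other genes. The widest of all, 7995 bp with a score of 243.32, lay 4558 bp upstream of the TSS of H2-Aa, which codes for the alpha chain of an MHC class II molecule, and held no TSS (chromosome 17, 34429330 to 34437324). The TSS of H2-Aa itself was in another very wide DHS, of 4089 bp. Next came 7824 bp at Ighm, the constant region of the IgM heavy chain (score 111.95), where 11.2% of 31-base words occur more than once in the assembly, so that reads shared with other copies could not be told apart. Isl2, a homeodomain factor of neurons, followed with 7770 bp and a score of only 67.09. The DHS at Tnrc18 scored 83.14 and that at Zfp36 scored 234.92. High width thus came with scores from percentile 73.6 (Isl2) to 98.1 (H2-Aa) among the 5 widest.

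Ranks 6 to 20 were again a mixture. In these ranks, 2 DHS at Sfi1, a gene for a centriole protein, measured 7405 and 6390 bp, with 23.4% and 10.9% repeated words. The TSS of Pax5 lay in 6909 bp, and that of Cd74, the invariant chain of MHC class II, in 6573 bp. Cytip, a regulator of lymphocyte adhesion, had 6391 bp. The pseudogene AY036118 had 6234 bp with the highest score of all very wide DHS (589.97) and 17.0% repeated words. The DHS of 6201 bp at Bzrap1 also held Mir142, a microRNA of blood cells, and those at Myo1c and Tgif1 measured 6152 and 6116 bp. After the Pax5 intron came 6012 bp over Dusp2, a phosphatase of MAP kinases, and Astl, then the Hvcn1 intron, Bcl6, an intergenic site 58147 bp from the nearest TSS, that of St3gal1 (5873 bp), and Egr3 (5737 bp). Of these 20 DHS, 16 held a TSS.

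What the sites held was then compared with narrower DHS of the same score deciles. A promoter was taken as CpG-rich where the 1000 bp around the TSS had at least 55% GC and an observed/expected CpG ratio no lower than 0.6. Of the 552, 261 (47.3%) held a CpG-rich TSS, against 45.5% of narrower DHS, a difference of 1.79 percentage points (-2.45 to 6.06) that counting error covers. Another 139 (25.2%) held only CpG-poor TSSs, against 14.9%, a difference of 10.3 points (6.75 to 14.1). The other classes were less frequent than in narrower DHS, with 47 (8.51% against 16.4%) that touched the promoter window from 5 kb upstream to 2 kb downstream but held no TSS, and 105 distal sites (19% against 23.2%). At the same score deciles, very wide DHS with a TSS were therefore more often CpG-poor. Of the 400 with a TSS 65.2% had a CpG-rich one, against 73.2% (difference -7.93, -12.8 to -3.31). Over all narrower DHS with a TSS, not matched by score, it was 62.2%. The median width was 3438 bp at CpG-rich and 3781 bp at CpG-poor sites.

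**Figure D2:**
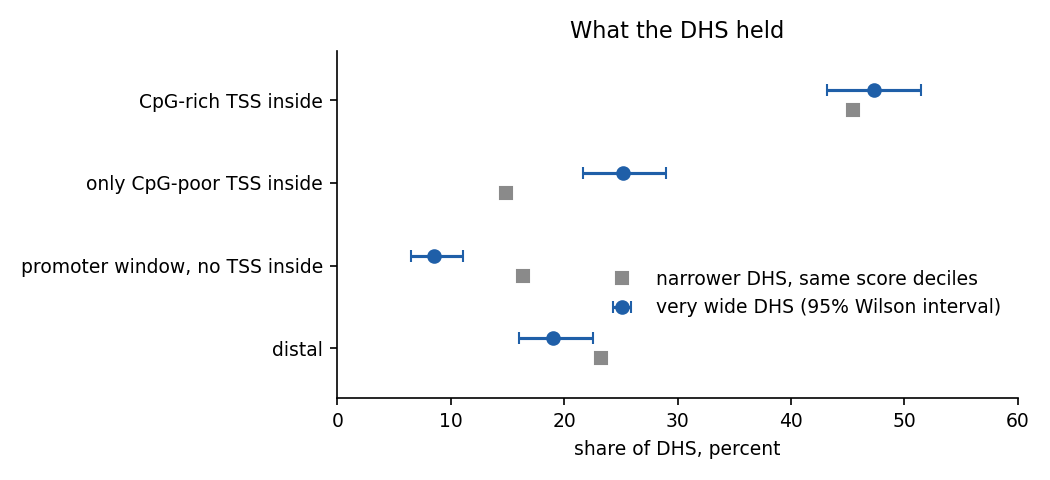
Share of very wide DHS (blue circles, 95% Wilson intervals, n = 552) and of narrower DHS of the same score deciles (grey squares) in 4 classes that add up to all DHS, x axis in percent. Sites with only CpG-poor TSSs made up 25.2% of very wide and 14.9% of narrower DHS, while CpG-rich sites were 47.3% and 45.5%.

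A wide interval takes in more bases around the same centre, so that shares based on any overlap cannot be told apart from width itself. A TSS was inside 72.5% of very wide and 60.4% of narrower DHS. The promoter window was touched by 81.0% and 76.8% (difference 4.21 points, 0.650 to 7.35), but it held the centre of 75.9% and 75.5%, a difference of 0.381 (-3.43 to 3.84). Placed by their centre, very wide DHS thus did not differ from narrower ones of like score in promoter share beyond counting error. The central 300 bp are a smaller part of a wide DHS than of a narrow one, so the next shares cannot be told apart from width either. A TSS was in the central 300 bp of 14.7% of very wide and 30.9% of narrower DHS (difference -16.3, -19.1 to -12.9), and among DHS with a TSS inside in 20.2% and 51.4%.

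The central 300 bp held 4.39 ± 3.71 CpG per 100 bp (SD over 552 DHS), against 5.69 in narrower DHS of the same score deciles (difference -1.29, -1.61 to -0.975). Over all narrower DHS, not matched by score, the mean was 2.95, so the lower content held only at like scores. Among the 105 distal sites the means were 2.05 and 2.25, a difference of -0.198 (-0.652 to 0.256) within counting error. To reduce the shift of the centre, the bases from 250 upstream to 50 downstream of the protein-coding TSS nearest the centre were compared. This window was chosen after the first result was seen. In this core promoter the 379 very wide DHS with such a TSS held 6.85 ± 3.90 CpG per 100 bp against 7.92 (difference -1.07, -1.47 to -0.668), at nearly the same GC content of 62.1% and 62.3% (difference -0.200, -1.11 to 0.713). The lower CpG content was therefore also seen in a window placed on a TSS. That TSS was still picked by its distance to the centre, and a wide DHS can hold more TSSs. This difference, and those of the words counted below in the same window, thus cannot be told apart from width either.

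Short words that transcription factors are known to recognise were counted in the same core promoters, on either strand. The Ets word CCGGAAGT was in 2.64% of very wide and 9.29% of narrower sites (difference -6.65, -8.06 to -4.39), against 4.61% of all 67194 annotated protein-coding TSSs. The Sp1 word GGGCGG was in 59.4% and 68.7% (difference -9.34, -14.5 to -4.38, with 40.4% of all TSSs), and the CRE word TGACGTCA in 2.11% and 4.48% (difference -2.37, -3.55 to -0.306, with 2.05% of all TSSs). Each of these words contains a CpG, so their counts cannot be told apart from the lower CpG content. By contrast, the octamer ATGCAAAT, known from immunoglobulin promoters and bound by Oct factors, was in 3.43% and 1.17% (difference 2.26, 0.816 to 4.63, with 1.40% of all TSSs), which is 13 promoters. The NF-kappaB word GGANTTTCC was in 3.17% and 1.12% (difference 2.05, 0.672 to 4.34, with 1.29% of all TSSs), which is 12 promoters. In the central 300 bp of all 552 very wide DHS neither word differed beyond counting error, with the octamer in 1.63% and 1.44% (difference 0.190, -0.619 to 1.64) and the NF-kappaB word in 1.27% and 1.17% (difference 0.0957, -0.595 to 1.44). Per kb of the whole DHS the NF-kappaB word was more frequent in very wide DHS, with 0.0584 and 0.0406 matches (difference 0.0178, 0.00711 to 0.0284), while the interval for the octamer included 0 (difference 0.0104, -0.00383 to 0.0245). The result for these words thus differed between the counts. The core promoters covered only the 379 DHS with a protein-coding TSS and the other counts all 552. A difference from the core promoters can therefore not be put down to the window alone.

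For the other words in core promoters the interval of the difference included 0. They were AGGAAGT (PU.1-like, 10.6% and 9.31%), CCAAT (NF-Y, 34.8% and 37.5%), TGANTCA (AP-1, 3.96% and 4.06%), TGTGGTT (Runx, 4.22% and 3.10%), CAGGTG (E-box, 18.7% and 16.4%) and AGGGGGC (a CTCF core, 18.7% and 16.2%). Over all TSSs these words were in 8.46%, 34.4%, 6.57%, 4.95%, 21.4% and 11.5%. In the central 300 bp the PU.1-like word was less frequent in very wide DHS (7.25% and 9.96%, difference -2.71, -4.68 to -0.181), but not per kb of the whole DHS (0.334 and 0.309, difference 0.0248, -0.00437 to 0.0539). Per kb the AP-1 (0.267 and 0.233), Runx (0.229 and 0.191), E-box (0.928 and 0.865) and CTCF core words (0.349 and 0.293) were more frequent in very wide DHS, with intervals of the difference above 0. The PU.1-like and the Ets word share GGAAGT but neither contains the other. A TATA box word, TATAAA between 40 and 15 bases upstream, was in 8 very wide sites (2.11% against 0.786%, difference 1.32, 0.252 to 3.33), and in 1.32% of all TSSs. The 8 were at 1300014I06Rik, Cd69, Cxcr4, Fos, Igfbp4, Junb, Lbh and Srsf3. Fos and Junb code for AP-1 subunits, Cd69 is an early activation marker and Cxcr4 is a chemokine receptor. These 8 and the counts of 12 and 13 are few, and a match is a stretch of letters and not a measured site.

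The choice by width fixes that very wide DHS reach further from the TSS in all. How the reach is divided between its sides is not fixed by that choice alone, but depends on the TSS used. Where a DHS held several protein-coding TSSs, the one nearest its centre was taken, which draws the division toward equal parts. A wide DHS can hold more TSSs, so the comparison of the sides is not free of width. In the 300 with TSSs of a single protein-coding gene on a single strand, the DHS extended 1687 ± 897 bp upstream and 2144 ± 872 bp downstream (mean ± SD over DHS), against 699 and 855 bp in narrower DHS. The downstream part was 56.4% of the width, against 56.9% (difference -0.500 points, -2.74 to 1.74), so that the division between the sides did not differ beyond counting error. Single genes departed widely from this mean. The DHS at Zfp36 reached 5608 bp upstream and 2045 bp downstream, and that at Actb reached 3565 and 519 bp. Those at Cd79b (47 and 5089 bp), Bcl6 (559 and 5353 bp), Cd74 (980 and 5593 bp) and Junb (58 and 4740 bp) lay mostly downstream. Their nearest other DHS was only 69, 95, 131 and 77 bp away, so a short reach on a side need not mean closed chromatin beyond the edge.

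**Figure D3:**
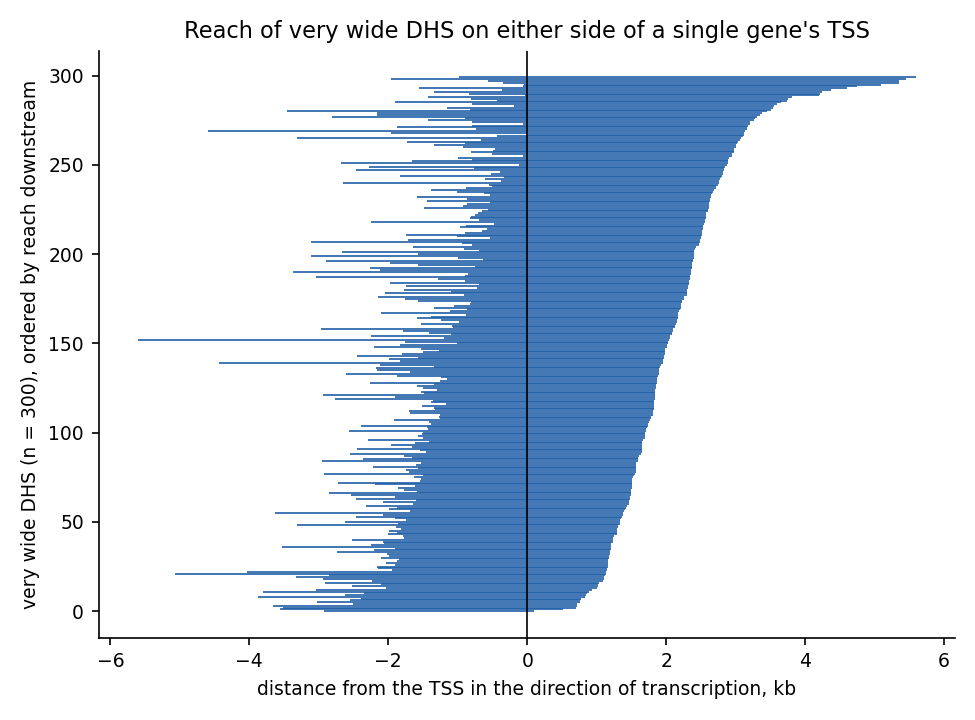
Each of 300 horizontal lines is a very wide DHS that holds the TSSs of a single protein-coding gene on a single strand, drawn from its upstream to its downstream edge in kb from the TSS (x axis) and ordered by reach downstream (y axis). Where a DHS held several TSSs, the one nearest its centre is used. The lines extend 1687 bp upstream and 2144 bp downstream on average.

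TSSs on both strands were in 19.3% of very wide and 17.8% of narrower DHS with a protein-coding TSS (difference 1.48, -2.31 to 5.86), and TSSs of 2 or more protein-coding genes in 12.7% and 12.6% (difference 0.0274, -3.08 to 3.85). Neither share differed beyond counting error, and the part of neighbouring TSSs in the width was not tested. Of the 379, 331 held TSSs of 1 protein-coding gene, 47 of 2, and 1 of 3. That DHS, of 3672 bp, held TSSs of the histone genes Hist2h2ab, Hist2h2ac and Hist2h2be and had 12.7% repeated words, so that its reads may be shared between copies. The widest with 2 were at Dusp2 and Astl, Zbtb25 and Zbtb1 (5239 bp), Tmc6 and Tmc8 (4858 bp), and Ap3m2 and 1700041G16Rik (4713 bp).

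At the level of genes, 425 of 21418 protein-coding genes on these chromosomes had a TSS in a very wide DHS, or 1.98% (Wilson interval 1.81 to 2.18). A TSS was in a DHS of any width in 47.3%, and of the 10132 genes with one, 4.19% had it in a very wide DHS. That share rose with the score of the DHS, from 0.629% of genes whose highest-scoring TSS DHS was in decile 6 to 7.98% in decile 10. Short genes were more frequent among them, with 20.7% of the 425 no longer than 5000 bp, against 11.8% of genes with narrower TSS DHS of the same deciles (difference 8.89, 5.22 to 13.1). In 27 cases a protein-coding gene lay whole inside a very wide DHS. The longest of these were Nkx2-3, a homeodomain factor of spleen development (3567 bp in a DHS of 4737 bp), and Fam43a (3075 bp in 4176 bp). Gm1614, the AP-1 gene Jund (2878 bp in 4082 bp), the actin-binding profilin gene Pfn1 (2795 bp in 4551 bp), Trex1, Fbxl15, Rasl10a, Dusp2 and the hormone gene Adm (2157 bp in 5557 bp) followed. In these the whole annotated gene lay within the called DHS.

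Lists of genes by function were set beside this background. For each list the share of genes in a very wide DHS, out of genes with a TSS in any DHS, was compared with the share over all protein-coding genes at the same score deciles. Before that, the B cell label was checked on marker genes. All 10 B cell markers had a DHS over a TSS, against 1 of 10 T cell markers (Lck), 1 of 10 myeloid markers (Cd14) and 2 of 10 erythroid markers, and none of the latter 3 lists had a very wide one, where the share of all genes at the same score deciles is 0.629%, 2.16% and 0.314%, too low for these few genes to show a difference. Of the B cell markers, 5 had a very wide DHS, namely Pax5, Cd79b (5136 bp), Blk (4779 bp), Ms4a1 (4353 bp) and Ebf1 (4350 bp), against 4.70% of all protein-coding genes at the same score deciles.

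Immediate early and feedback genes, which are switched on within minutes of a signal or dampen its effect, had a TSS in a very wide DHS in 15 of 30, or 51.7% of the 29 with a TSS DHS (34.4 to 68.6), against 5.85% of all genes at the same score deciles. The median of their widest TSS DHS was 3028 bp, against 1463 bp over all protein-coding genes with one. Zfp36 (7653 bp), Dusp2 (6012 bp) and Egr3 (5737 bp) led, followed by Ier2 (4920 bp), Junb (4798 bp), the stress-induced Atf3 (4691 bp), Egr2 (4347 bp), Zfp36l2 (4299 bp), Jund (4082 bp) and the nuclear receptor gene Nr4a2 (3972 bp). Their scores ran from 54.79 at Nr4a2 to 267.67 at Jund, so that a very wide DHS in this list was not always a high-scoring one. Of the 19 whose highest-scoring TSS DHS was in the top score decile 9 had a very wide one (47.4%), against 7.98% of all genes in that decile.

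B cell transcription factors had a very wide TSS DHS in 13 of 30, or 43.3% (27.4 to 60.8) against 6.86%, with a median widest DHS of 2771 bp. After Pax5 and Bcl6, a repressor needed for germinal centres, came Pou2f2 (5238 bp), the gene of an octamer-binding factor, then Bcl11a (4494 bp), Ebf1 (4350 bp), Spib (3932 bp), the octamer coactivator gene Pou2af1 (3783 bp), the plasma cell regulator Prdm1 (3754 bp), Irf4 (3498 bp) and Mef2c (3382 bp). These 10 widest scored in the highest decile, from 129.72 at Irf4 to 288.45 at Pou2f2, whereas Irf8 (3145 bp) scored 57.49. Among B cell surface and receptor signalling genes, 8 of 30 were in a very wide DHS (26.7%, 14.2 to 44.4, against 5.38%, median 2266 bp). These were Cd79b, a signalling chain of the B cell receptor, and Blk, Blnk (4412 bp), Ms4a1, Cd24a (4308 bp), Ltb (4081 bp), Cd72 (3304 bp) and Cd52 (3002 bp). Cd79b and Blk had scores of 109.17 and 110.31, below the highest decile.

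**Figure D4:**
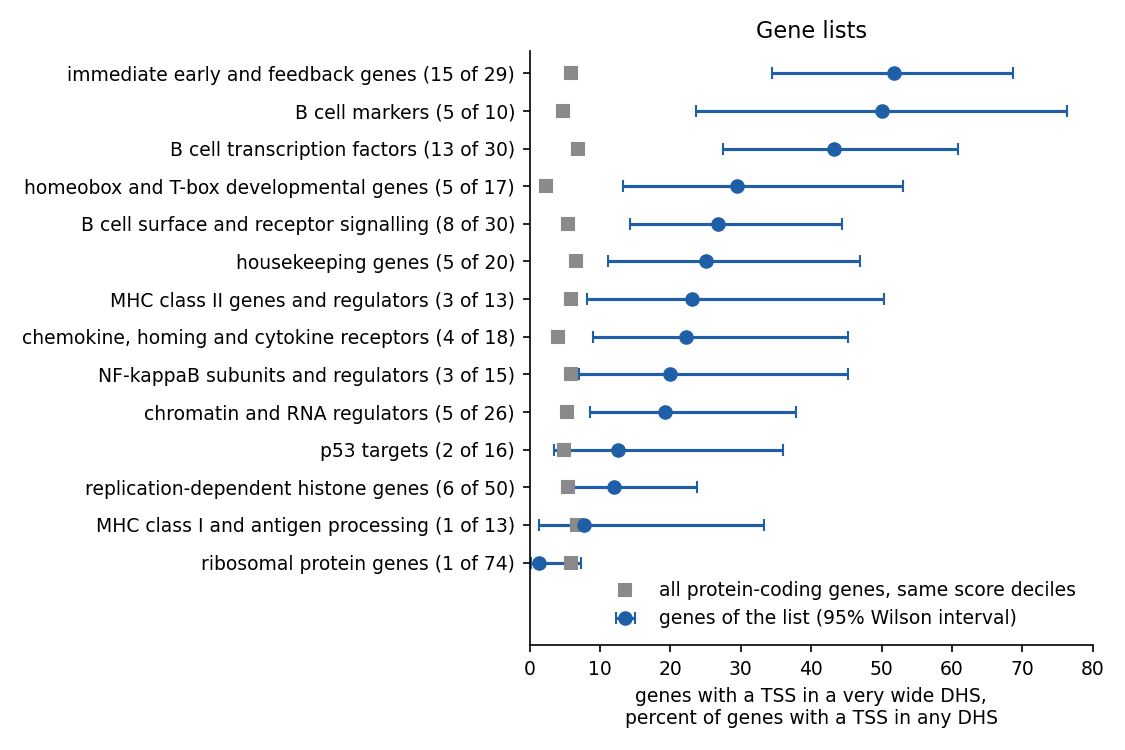
Share of the genes of each list that have a TSS in a very wide DHS, in percent of the genes with a TSS in any DHS (blue circles, 95% Wilson intervals, counts in brackets), for lists with at least 10 such genes, beside the share of all protein-coding genes at the same score deciles (grey squares). Immediate early genes are at 51.7% beside 5.85%, B cell transcription factors at 43.3% beside 6.86%, and ribosomal protein genes at 1.35% beside 5.92%.

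Smaller lists gave fewer genes. Of genes of MHC class II and its regulators 3 of 13 with a TSS DHS were in a very wide one (23.1%, 8.18 to 50.3, against 5.85%), namely Cd74, H2-Aa (4089 bp) and Ciita (3063 bp), the master regulator of class II. For MHC class I and antigen processing it was B2m alone (3513 bp), 1 of 13 (7.69% against 6.75%). Receptors for chemokines, homing and cytokines had 4 of 18 (22.2% against 4.06%), which were S1pr1 (5040 bp), Il10ra (4473 bp), Cxcr4 (3781 bp) and Cxcr5 (3389 bp), genes for receptors that guide B cells within and out of lymphoid tissue, with the exception of the interleukin receptor Il10ra. NF-kappaB subunits and regulators had 3 of 15 (20%, 7.05 to 45.2, against 5.89%). These were Nfkbie (3265 bp), an inhibitor of NF-kappaB, the ubiquitin ligase gene Birc3 (3263 bp) and the receptor adaptor gene Traf1 (3221 bp). The p53 targets, the subject of the study, had 2 of 16 (12.5%, 3.50 to 36.0, against 4.94%), Trp53inp1 (3058 bp) and Cdkn1a (3034 bp), both close above the threshold.

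Wide sites were not restricted to genes of B cell function. Housekeeping genes had 5 of 20 (25%, 11.2 to 46.9, against 6.63%), with Pfn1, Actb (4084 bp), B2m, Ywhaz (3216 bp) and Tubb5 (3019 bp). Chromatin and RNA regulators had 5 of 26 (19.2%, 8.51 to 37.9, against 5.35%), which were Neat1 (5198 bp), the gene of a long noncoding RNA, Brd2 (4398 bp), Mll5 (3907 bp), Ddx5 (3137 bp) and Hnrnpa2b1 (3086 bp). Replication-dependent histone genes had 6 of 50 (12%, 5.62 to 23.8, against 5.43%), but these 6 lay in only 3 DHS. The ribosomal protein genes had 1 of 74 (1.35%, 0.239 to 7.27, against 5.92%), an interval that includes the share of all genes, and 45 of the 74 had a TSS DHS in the highest score decile. Their median widest TSS DHS was 1575 bp.

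Homeobox and T-box genes of development, many of which are silent in B cells, gave a further pattern. The list took gene families by symbol, such as Hox, Dlx, Lhx, Nkx and Tbx, and left out other such genes that had a TSS in a very wide DHS, for example Tbr1 (4483 bp, score 48.6), Shox2 (3954 bp, score 49.89), Hhex (4701 bp, score 191.04) and Tgif1 (6116 bp, score 335.1), named after their values were seen. Of 101 such genes 17 had a TSS in a DHS, and in 5 of these it was very wide (29.4%, 13.3 to 53.1, against 2.29%). Besides Isl2 these were Lhx9 (5118 bp), Nkx2-3 (4737 bp), Hoxa7 (4126 bp) and Dlx2 (3517 bp). Their scores were 67.09, 87.19, 47.16, 66.93 and 45.97, below the median of 150 of all very wide DHS. Of 1081 olfactory receptor genes none had a TSS in a DHS, with a Wilson interval up to 0.354%, and of 20 genes of other tissues 2 had one, neither very wide, against 0.314% of all genes at the same score deciles, which such a count cannot be told apart from.

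The scores at both ends give another view. After AY036118 the highest scores were 565.34 at a site of 3135 bp that lay 629 bp from the TSS of Irf2bp2, 519.65 at the splicing factor gene U2af2 (3447 bp), 511.77 in an intergenic site nearest to a U1 gene (4351 bp) and 479.47 at Arrdc3 (3831 bp). The lowest was 19.21, in an intergenic site of 3343 bp nearest to Mir148a. Those nearest to Gm11828 (21.3), Ucp2 (30.14), Gm15396 (32.35) and Mir183 (32.46) followed. All 5 of the lowest held no TSS of a protein-coding gene, as did 3 of the 5 highest.

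The 105 distal sites had a median width of 3415 bp and a median score of 129. Of these 68 were intergenic, 34 intronic and 3 exonic, and the intronic share of all very wide DHS, 6.16%, was below the 9.18% of narrower DHS (difference -3.02, -4.81 to -0.654). A DHS that touched a promoter window anywhere was not counted as intronic, so this difference cannot be told apart from width. After the 3 already named, the widest were intergenic near Bcar3 (5430 bp, 10985 bp from the TSS), in an intron of Gramd3 (5032 bp) and intergenic near Ap1m1 (4921 bp). Next was an intron of Fli1 (4718 bp), an Ets factor gene, and an intergenic site of 4716 bp within 50 kb of the DHS at Ighm with a score of only 40.24. An intron of Adora3 (4698 bp, score 339.89) and an intergenic site 35201 bp from the TSS of Snx9 (4668 bp, score 363.15) closed the 10 widest. Scores of distal sites ran up to 512, close to the 520 reached by DHS with a CpG-rich TSS.

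Very wide DHS had close neighbours. The gap to the nearest other DHS was under 10 kb in 87.9% (84.9 to 90.3), against 75.6% of narrower DHS of the same score deciles (difference 12.3, 9.19 to 14.9), and the mean number of other DHS within 50 kb of the edges was 9.68 ± 5.66 against 6.83. Another very wide DHS was within 50 kb for 119 of them (21.6%). Joined at that distance the 552 formed 489 groups, of which 433 were single DHS. The largest group was of 5 at Sfi1, where the median share of repeated words was 9.11%. Groups of 3 followed at Pax5, Ly6e, Akna, and Fosb with Ercc1.

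There were 21 genes overlapped by 2 or more very wide DHS. Sfi1 had 5 and Gm20388, a very long gene model that spans many other genes, had 4. Pax5 had 3, with 18504 bp in all, over the most 5' TSS (6909 bp, score 167.27), over a TSS inside the gene (5519 bp, score 265.27) and in an intron 36358 bp downstream (6076 bp, score 314.98), so that the score was lowest at the 5' end. Cd74, Gse1, Osr2, Hvcn1, Fli1, Tbr1 and Spib had 2 each. Osr2 and Tbr1, both developmental regulators, had scores of 48.5 to 84.2 and 36.7 to 48.6. Spib, a factor related to PU.1, had 149 to 192. At Ebf1 a DHS of 4350 bp covered the TSS and another of 3332 bp lay 3338 bp upstream. At Zfp36, the DHS of 7653 bp over the TSS was followed downstream by a narrower one of 1956 bp and then by another very wide DHS of 3122 bp with a score of 336.35, which holds the TSS of the neighbouring gene Plekhg2.

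**Figure D5:**
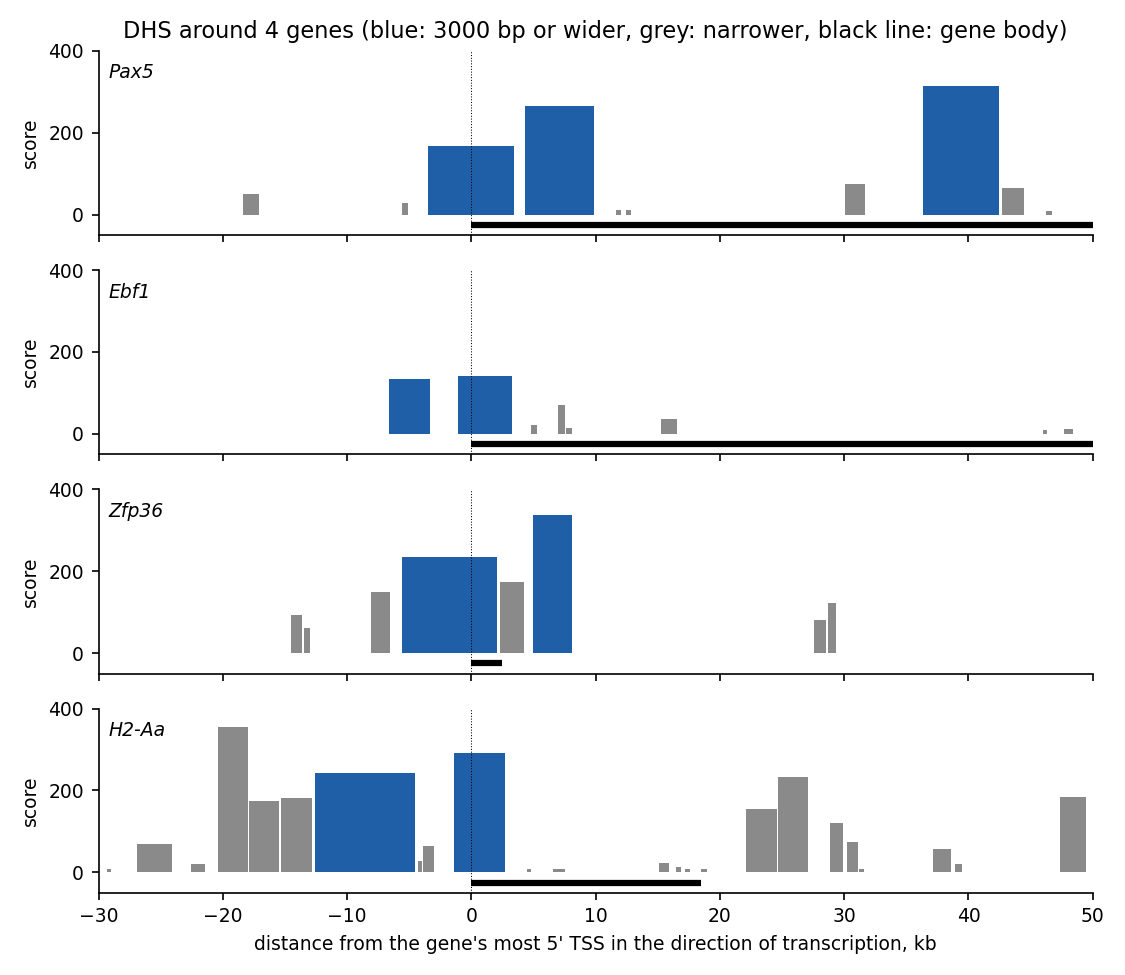
DHS around Pax5, Ebf1, Zfp36 and H2-Aa by distance in kb from the most 5' TSS in the direction of transcription (x axis), with bar height giving the score (y axis), very wide DHS in blue, narrower DHS in grey and the gene body as a black line. Pax5 has 3 very wide DHS in this window and the other genes have 2 each, and the widest of H2-Aa (7995 bp) lies upstream of its TSS.

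Repeated sequence was not more frequent in very wide DHS than in narrower ones. More than 10% repeated 31-base words were found in 14 (2.54%) against 6.24% of narrower DHS of the same score deciles (difference -3.71, -4.82 to -1.98). The percentage is taken over the whole DHS, so the share above 10% cannot be told apart from width. The mean percentages were closer, 2.03% and 2.48% (difference -0.451, -0.728 to -0.173). Besides those named at Ighm, Sfi1, AY036118 and the histone genes, they include sites at E030030I06Rik (27.4%, the highest), Cdk6 (19.5%), Ly6e (14.7%) and Sgk1 (13.6%), named after their values were seen, and values there are uncertain. The share of very wide DHS on single chromosomes ran from 0.859% on chromosome 1 to 1.47% on chromosome 12.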

How the data were processed

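DNase I-digested chromatin of 1 library was available as a peak list. The authors deposited, per the file, chromosome, start, end, a peak name of the MACS type and a score for each peak. The scale of the deposited score and the settings of the caller for this library are not given in the sources used here, and those that the study states for ChIP-seq were not assumed. The submitters' processing notes name BWA 0.6.2, SAMtools and mm9. No read counts were used, so the depth is unknown. The caller's rule for joining enriched stretches sets where a DHS begins and ends, and so the width itself.

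Peaks were annotated with GENCODE M1 on NCBI build 37 (mm9). A DHS was very wide at 3000 bp or more. Each share in narrower DHS was standardised to the score deciles of the very wide DHS, with Newcombe intervals for differences of shares, normal intervals for differences of means and Wilson intervals for shares, all at 95% (Python 3.11.15, numpy 2.4.6, pandas 2.3.3, scipy 1.17.1, numba 0.67.0). The standardisation was tested on simulated data that held no differences in score within a class. The unequal scores within deciles were therefore not covered by that test. Repeated sequence was measured as the percentage of a DHS's 31-base words found again elsewhere on the assembled chromosomes.

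Members, tests and gene lists were chosen with earlier results of these data known, so that no list is independent evidence. Named were the 20 widest DHS, the 10 widest distal ones, the 5 highest and 5 lowest scores, the 3 on each side of the threshold, the 5 with most genes, the 10 longest genes inside a DHS, up to 10 genes with several, and list members (the 10 widest where more qualify). A few items that this rule names are not reported here. The 2 symbols Spi1 and Syk were renamed to those of the annotation, Sfpi1 and Sykb. Alternatives were other widths, stricter scores, merged peaks, chromosome X, repeats left out, other score classes, windows, gaps and TSS sets. Sequences come from the NCBI build 37 assembly, and a table of promoters on GRCm38, another build, was left out.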

Additional observations from a re-analysis of the deposited data

Results flagged for a closer look

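Chromosome X was outside the main comparisons and entered them only as an alternative setting. It held 4 very wide DHS among 864 (0.463%, Wilson interval 0.180 to 1.18), against 1.18% (1.09 to 1.29) on chromosomes 1 to 19. Among them were sites in an intron of the corepressor gene Bcor (3551 bp, score 68.04), 4142 bp from the TSS of Sash3, a lymphocyte signalling adaptor (4140 bp, score 77.76), and over the TSS of Tmsb4x, which codes for an actin-binding thymosin (3381 bp, score 90.76). These scores lay below the median of 150 on chromosomes 1 to 19. The intervals of the shares overlap, and the difference was not tested.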

How the results depend on the processing

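The list holds 1 library and no read counts, so the depth is unknown and limits every statement on width. Of 70 alternative values, 42 stayed within the interval of the main value (for the number of DHS, within 1.5 times), 26 moved beyond it and 2 reversed. No paired analysis was possible because there is only 1 DNaseI library. The alternative restricted to DHS with a TSS inside and those restricted to genes in the top score decile were chosen after seeing the data. Causes of these changes were not tested, except that other widths and merging change the members by construction.

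Without standardisation by score 2 directions reversed. A TSS in the central 300 bp was then more frequent in very wide DHS by 2.65 percentage points (-0.0699 to 5.86), CpG per 100 bp was higher by 1.44, and the promoter difference was 34.3 points. Counted by the peak centre the promoter difference was 0.381. Its interval also included 0 for windows of 1 kb up- and downstream (3.25, -0.608 to 6.77) and with protein-coding TSSs only (2.48, -1.32 to 5.91).

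At a width of at least 2500 bp there were 1158 DHS, holding a TSS of 3.90% of protein-coding genes and of 63.3% of B cell transcription factors, the promoter difference was 1.38 points (-1.22 to 3.82) and the neighbour difference was 7.49 points. At 4000 bp or more there were 161, with 0.593% of protein-coding genes, 30% of immediate early genes and 16.7% of B cell transcription factors, a promoter difference of 8.71 and a neighbour difference of 17.7 points. Merging peaks closer than 500 bp gave 1420 DHS, differences of -24.3 points for a central TSS, -2.13 for CpG and 16.4 points for neighbours, and shares of 4.95%, 70.0% and 73.3% for the same 3 gene sets.

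The neighbour difference was 8.33 points at scores above the median, 8.73 for gaps under 2 kb and 2.93 for gaps under 50 kb. The CpG difference was -0.649 over whole peaks and -2.33 in DHS with a TSS inside. With only the most 5' TSS of each gene 1.69% of protein-coding genes were in a very wide DHS. The same setting gave 14 of 30 immediate early genes and 9 of 30 B cell transcription factors, and the main setting 15 and 13. Both list shares were thus lower, but stayed within the intervals of their main values. Among genes in the top score decile 7.98% of protein-coding genes were in a very wide DHS. The immediate early and B cell transcription factor shares stayed above the share of protein-coding genes in each setting in which they were computed. Except among genes in the top score decile, that share was over all protein-coding genes and not at the same score deciles. Of all protein-coding genes 47.3% had a TSS in a DHS, against 96.7% and 100% of these lists. These settings therefore do not test the comparison at the same score deciles.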

Other observations

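On sequence outside the numbered chromosomes and X there were 2 very wide DHS, of 3150 bp with a score of 50.33 and of 3791 bp with a score of 300.19. The mitochondrial genome held 7 DHS, of which 0 were very wide.

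Genes that do not code for protein also had TSSs in very wide DHS. Beside the 1.98% of protein-coding genes, these were 26 of 1232 long intergenic noncoding RNA genes (2.11%) and 10 of 1468 microRNA genes (0.681%), among them Mir142 and Mir1199. Of 2437 processed transcripts 20 had one (0.821%), among them Neat1, a long noncoding RNA of nuclear paraspeckles, which the annotation places in that class, and of 4055 pseudogenes 7 had one (0.173%). Of 1458 snoRNA genes 3 had one (0.206%), and of 1331 snRNA genes 2 (0.15%). No comparison with narrower DHS was made for these genes.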
